A study of Homo sapiens with 6 samples.

Results

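The H1 histamine receptor HRH1, the regulator of G protein signaling RGS2 and 8 other genes of the Gq pathway were followed in SW480 cells, an established line from a human colorectal adenocarcinoma. The 10 genes were chosen by earlier values of the same comparison, in which HRH1 and RGS2 were lower in cells with less HPSE, and were completed with Gq alpha subunits, phospholipases C beta and other receptors that couple to Gq. They are HRH1, F2R, F2RL1 and P2RY2 (receptors), GNAQ and GNA11 (alpha subunits), RGS2 (inhibitor), and PLCB1, PLCB3 and PLCB4 (effector enzymes). A row with the gene's Ensembl identifier was found for 9 of the 10, among 59192 features of which 25927 carry an Ensembl identifier. P2RY2 (ENSG00000175591) had no row under its identifier and was not analysed here. The other 33265 features are loci that were not named, so a gene with no row is not shown to be absent. Because the values of this comparison chose the genes, the differences of these 9 are given as a description without a test.

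The study asked how heparanase (HPSE), an enzyme that cleaves heparan sulfate, acts in colorectal cancer cells, and sequenced RNA of a control and a knockdown line with 3 libraries each, from independent experiments. Both lines were made by lentiviral infection with Cas9, puromycin selection and a further infection with a guide RNA vector that also carries EGFP. The line labelled SW480-NC carries a control guide and serves as the control, and the line labelled SW480-45 carries the genotype HPSE knockdown. The label does not name the guide, and the study's text describes a single sequenced knockdown line, made with the guide against exon 4 of HPSE. Whether the sequenced lines are pools or clones is not given in the sources used here. With 1 sequenced knockdown line an effect of the guide or of the line cannot be told apart from that of HPSE.

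Gq-coupled receptors bind histamine, nucleotides, peptides or, for the protease-activated receptors, their own cleaved end. The activated receptor loads GTP onto the alpha subunits of Gq and G11, which switch on phospholipase C beta. This enzyme splits a membrane lipid into inositol trisphosphate, which releases calcium, and diacylglycerol, which activates protein kinase C. RGS2 speeds the hydrolysis of GTP on Gq and so shortens the signal. In colon epithelium this pathway is known for its part in the secretory response to histamine, acetylcholine and luminal proteases.

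Promoter windows from RefSeq on GRCh38.p14, from 250 bases before to 50 bases after an annotated start, were found for 5 of the genes, HRH1, RGS2, F2RL1, GNA11 and PLCB3. The windows of the 3 genes whose libraries lay apart between the lines are shown so that their base composition can be compared. HRH1 has 3 windows, and the first, at chr3:11136988-11137287, is given with RGS2 at chr1:192808789-192809088 and F2RL1 at chr5:76818780-76819079, all on the plus strand. Capitals mark matches on either strand to TGANTCA, a form of the AP-1 site, and to TGACG, which is also the start of TGACGTCA, the cAMP response element.
HRH1: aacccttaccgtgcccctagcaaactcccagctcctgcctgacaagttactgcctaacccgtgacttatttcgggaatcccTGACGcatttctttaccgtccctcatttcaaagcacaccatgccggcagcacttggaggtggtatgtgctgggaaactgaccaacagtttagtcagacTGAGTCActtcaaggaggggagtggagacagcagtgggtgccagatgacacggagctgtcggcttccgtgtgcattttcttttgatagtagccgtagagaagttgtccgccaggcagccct
RGS2: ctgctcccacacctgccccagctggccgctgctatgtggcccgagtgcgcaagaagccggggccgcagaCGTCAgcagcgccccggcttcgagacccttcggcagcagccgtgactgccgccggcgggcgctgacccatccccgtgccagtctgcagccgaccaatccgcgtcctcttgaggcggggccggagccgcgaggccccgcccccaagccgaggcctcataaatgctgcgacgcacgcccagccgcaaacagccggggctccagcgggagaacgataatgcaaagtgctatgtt
F2RL1: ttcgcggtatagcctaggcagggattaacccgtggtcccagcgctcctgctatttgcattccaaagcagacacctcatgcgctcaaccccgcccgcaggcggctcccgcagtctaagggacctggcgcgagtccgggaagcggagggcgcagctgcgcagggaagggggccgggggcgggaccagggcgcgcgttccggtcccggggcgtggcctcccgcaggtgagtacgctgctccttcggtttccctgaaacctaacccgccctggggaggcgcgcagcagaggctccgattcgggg
The HRH1 window held TGAGTCA 71 bases before the start and TGACG 169 bases before it. The RGS2 window held CGTCA, the reverse strand form of TGACG, 181 bases before the start, and the F2RL1 window held neither motif. Matches were not limited to genes that were lower in the knockdown line. The PLCB3 window also held TGACG, and the libraries of PLCB3 overlapped between the lines. The window of HNMT, a gene described below that was higher in the knockdown line, held TGACTCA 164 bases before the RefSeq start. By the GENCODE coordinates that whole window lies inside the gene. The GNA11 window held neither motif. Over all 35116 RefSeq windows, 7.71% held TGANTCA, 24.6% held TGACG and 1.85% held TGACGTCA, so the TGACG matches are common. GC content was 53.3% in this HRH1 window, 69.7% for RGS2 and 69.0% for F2RL1, beside a median of 58.7% over all windows. The other HRH1 windows differed in composition, with 81.0% GC at chr3:11154243-11154542 and 43.7% at chr3:11252449-11252748, and neither held TGANTCA or TGACG. Counts per gene do not tell which start was used. The motifs were searched after the expression values were seen, and a match is a description of letters, not of binding.

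The 6 libraries held 33221323 to 39802365 reads on the features, recovered from the deposited normalized counts. Normalized counts of HPSE, against which the guide was directed, were 136.0, 172.5 and 146.0 in SW480-45 and 269.9, 294.6 and 246.0 in SW480-NC. All SW480-45 libraries were below all SW480-NC libraries, with a log2 difference of −0.83 and a standard error of 0.14 (n = 3 per line, adjusted p = 0.0547 from limma). The study examined HPSE protein by western blot and reported an efficient knockdown, which these RNA values do not measure. Of the markers of colon epithelium, EPCAM, KRT8, KRT20 and VIL1 were present, with 17564 and 18657 normalized counts of EPCAM in SW480-45 and SW480-NC. CDH1 and KRT18 had no row under their identifiers, which does not show them to be absent. KRT20, a keratin of differentiated colon epithelium, was lower in SW480-45, at 4541 ± 82.3 against 7952 ± 619 (SD, n = 3; log2 fold change −0.81, adjusted p = 0.00719 from limma). The 4 epithelial markers did not all go one way. In mean 3 were lower and 1 was higher in SW480-45, with log2 fold changes from −0.81 to 0.20. The summed fibroblast markers ranged from 280 to 387 in SW480-45 and from 229 to 264 in SW480-NC, most of it COL1A1 and the next PDGFRB, with COL1A2 and LUM at or near 0. Leukocyte and mast cell markers summed to 41.5 to 48.8 and 34.8 to 51.3, and endothelial markers to 28.0 to 43.2 and 12.6 to 26.5. Their part in the results below was not tested.

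HRH1 and RGS2 had the largest differences among the 9 genes, and both were lower in SW480-45. The libraries of HRH1, RGS2 and F2RL1 did not overlap between the lines, while those of the other 6 genes did. Across all 21703 features tested, limma called 0.802% at an adjusted p under 0.05, 0.332% higher and 0.470% lower in SW480-45, and the libraries of the lines did not overlap in 23.4% of features. Of the 9 genes, 2 were among those called, both lower, and 3 did not overlap, but the genes were chosen on this comparison and nothing is read from these counts. The other 7 genes lay between −0.22 and 0.13 on the log2 scale, within the 80.9% of all features that differed by 0.5 or less in size. The median log2 fold change was −0.10 over the 9 genes and −0.00 over all features tested.

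**Figure D1:**
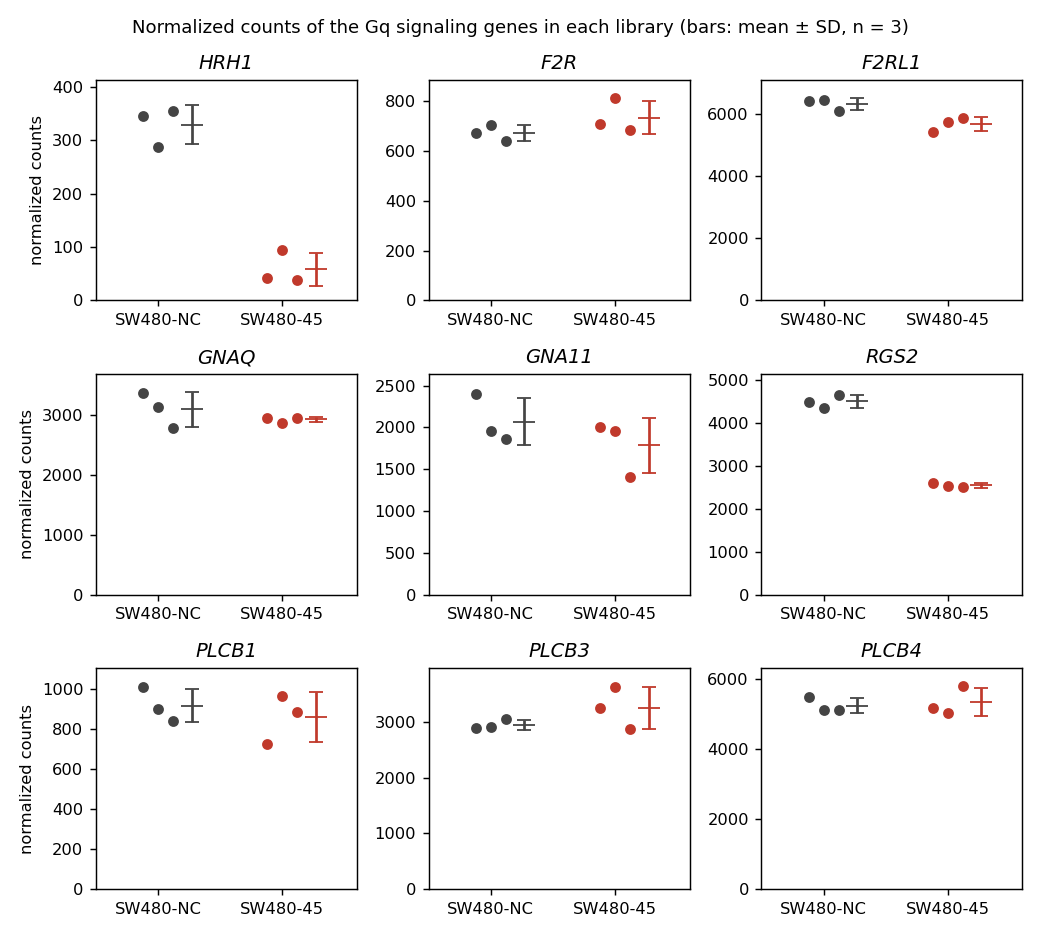
Normalized counts of the 9 Gq pathway genes in each library, with the lines on the horizontal axis, points for libraries and bars for the mean ± SD (n = 3). The SW480-45 points lie below all SW480-NC points for HRH1, RGS2 and F2RL1, and the lines overlap in the other 6 panels.

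HRH1 (ENSG00000196639, chr3:11137093-11263557, plus strand) encodes the H1 histamine receptor. It had 42.2, 93.9 and 38.6 normalized counts in the SW480-45 libraries, from 40, 104 and 41 reads. The SW480-NC libraries had 345.2, 287.8 and 355.2 normalized counts. Replicate 2 of SW480-45 was more than the others of its line, and replicate 2 of SW480-NC was the lowest of its line, yet the lines stayed far apart. The mean was 58.2 ± 31.0 in SW480-45 and 329 ± 36.4 in SW480-NC (SD, n = 3), so that 17.7% of the control level was left. The log2 fold change was −2.59 with a standard error of 0.32, and the difference exceeded the spread within either line. In these bulk libraries fewer cells with HRH1 and less HRH1 RNA per cell cannot be told apart. The coefficient of variation was 53.1% in SW480-45, against a lower one in SW480-NC. The log2 fold change was −2.99 without SW480-45 replicate 2 and −2.36 without SW480-45 replicate 3, the lowest and highest of the 15 alternative settings.

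The protease-activated receptors lie next to each other on chromosome 5, 83.2 kb apart, and differed little between the lines. F2R (chr5:76716043-76735781) encodes the thrombin receptor PAR1. It had 706.5, 811.9 and 684.9 normalized counts in SW480-45 and 673.6, 706.0 and 640.4 in SW480-NC. The lines overlapped, with means of 734 ± 68.0 and 673 ± 32.8 (SD, n = 3) and a log2 fold change of 0.12 (standard error 0.10). The gene shares 0.959% of its exon bases with the antisense gene AC025188.1. The library kit does not mark strand, so reads from those bases cannot be assigned to either gene by strand. F2RL1 (chr5:76818933-76835315) encodes PAR2, the receptor for trypsin-like proteases. Its SW480-45 libraries had 5427, 5731 and 5864 normalized counts and its SW480-NC libraries 6406, 6456 and 6094. Every SW480-45 library was lower than every SW480-NC library, but the gap was small, with 89.8% of the control level left (5674 ± 224 against 6319 ± 196, SD, n = 3). The log2 fold change of F2RL1 was −0.16 (standard error 0.06) and −0.10 after quantile normalization.

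The alpha subunits overlapped between the lines. GNAQ (chr9:77716087-78031458, minus strand), the Gq subunit, had 2951, 2868 and 2954 normalized counts in SW480-45 and 3362, 3131 and 2790 in SW480-NC. The SW480-45 values were within the range of the SW480-NC values, and the log2 fold change was −0.08 (standard error 0.08). GNA11 (chr19:3094410-3124004, plus strand), the G11 subunit, had 2000, 1953 and 1408 normalized counts in SW480-45. Its SW480-NC libraries had 2394, 1957 and 1860. A single low library, SW480-45 replicate 3, set most of the difference, as the log2 fold change was −0.22 (standard error 0.16) with it and −0.06 without it. Without SW480-NC replicate 1, the highest control library, the log2 fold change was −0.11. GNAQ and GNA11 are close paralogs, so reads of one may have been counted for the other, and 14.8% of the exon bases of GNA11 are shared with the antisense genes AC005262.2 and KF456478.1. Per kilobase of exon, GNAQ made up 60.9% ± 4.79 of the pair in SW480-45 and 58.5% ± 1.59 in SW480-NC (SD, n = 3), a difference smaller than the spread in SW480-45.

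RGS2 (ENSG00000116741, chr1:192809039-192812283, plus strand) differed with little spread within either line. The SW480-45 libraries had 2601, 2539 and 2506 normalized counts. The SW480-NC libraries had 4504, 4361 and 4661. All SW480-45 libraries were close together and far below the lowest SW480-NC library, with coefficients of variation of 1.90% and 3.34%. The mean was 2549 ± 48.4 in SW480-45 and 4509 ± 150 in SW480-NC (SD, n = 3), or 56.5% of the control level. The log2 fold change was −0.82 with a standard error of 0.06, and it lay between −0.85 and −0.77 in the 15 alternative settings.

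Phospholipase C beta, the enzyme that Gq and G11 switch on, was represented by 3 genes whose libraries overlapped between the lines. PLCB1 (chr20:8077251-8968360) had 722, 965 and 885 normalized counts in SW480-45 and 1006, 900 and 841 in SW480-NC. Its log2 fold change was −0.10 (standard error 0.13), and the sign turned without SW480-45 replicate 1, to 0.02. PLCB3 (chr11:64251523-64269150) had 3248, 3639 and 2885 normalized counts in SW480-45 and 2894, 2918 and 3060 in SW480-NC. The SW480-45 libraries of PLCB3 spread to both sides of the SW480-NC libraries, and the log2 fold change was 0.13 (standard error 0.10). PLCB4 (chr20:9068763-9481242), 100.4 kb from PLCB1, had 5177, 5038 and 5798 normalized counts in SW480-45 and 5482, 5107 and 5108 in SW480-NC. Its log2 fold change was 0.03 (standard error 0.08) and turned to −0.03 without SW480-45 replicate 3. No direction is given for PLCB1 or PLCB4.

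**Figure D2:**
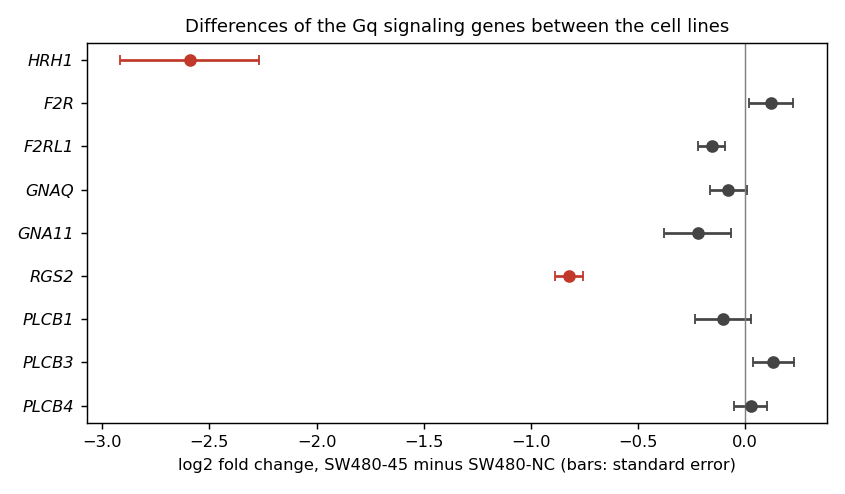
Log2 fold change (SW480-45 minus SW480-NC) of each of the 9 genes, with bars for the standard error from limma. HRH1 at −2.59 and RGS2 at −0.82 stand apart from the other 7 genes, which lie between −0.22 and 0.13.

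Levels were compared between genes only per kilobase of annotated exon. In SW480-NC the highest levels were those of RGS2, at 2151 normalized counts per kb, and F2RL1, at 2136, whose libraries overlapped. PLCB4 (758), PLCB3 (596), GNAQ (467), GNA11 (332) and F2R (166) followed, each with libraries apart from the next. HRH1 at 59.4 and PLCB1 at 52.6 overlapped at the low end. In SW480-45, F2RL1 was highest at 1918 normalized counts per kb and RGS2 second at 1216, with no overlap between them, and HRH1 was lowest at 10.5, below PLCB1 at 49.2. PLCB4 at 774 and PLCB3 at 656 overlapped there. The order depended on the length used, a choice added after the data were seen. With the longest protein-coding transcript, RGS2 in SW480-NC was at 3330 and no longer overlapped F2RL1 at 2168, GNA11 (499) passed GNAQ (473) with overlapping libraries, and PLCB1 (125) passed HRH1 (69.9). With that length F2RL1 (1947) and RGS2 (1882) overlapped in SW480-45, PLCB4 (915) and PLCB3 (729) no longer did, and GNAQ (447) and GNA11 (431) overlapped.

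**Figure D3:**
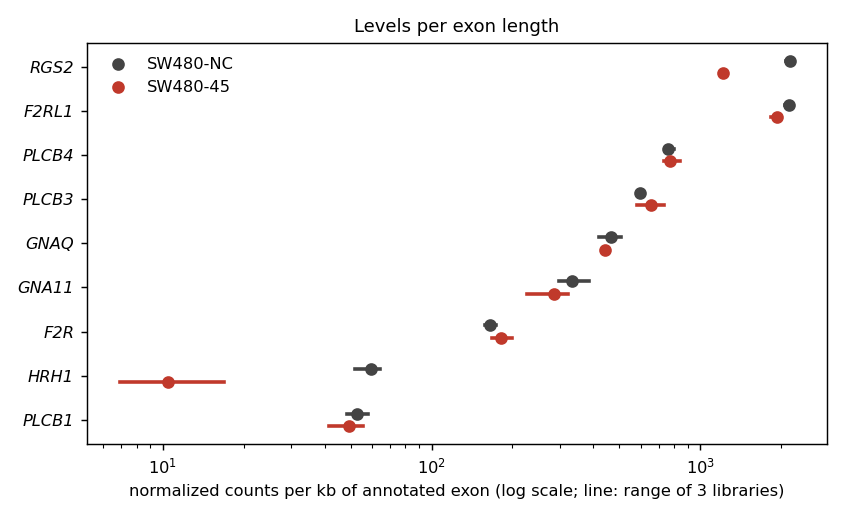
Normalized counts per kb of annotated exon for the 9 genes on a log axis, with points for the mean and lines for the range of the 3 libraries of each line. HRH1 goes from 59.4 in SW480-NC to 10.5 in SW480-45 and RGS2 from 2151 to 1216, while the other genes stay near their control level.

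Within their roles the genes made up uneven shares. F2RL1 held 90.5% of the summed level per kb of the 3 measured receptors of the set in SW480-NC and 90.9% in SW480-45. HRH1 held 2.52% in SW480-NC and 0.495% in SW480-45, so that its difference is a small part of the receptor sum, which was 2361 ± 69.2 and 2109 ± 80.8 normalized counts per kb (SD, n = 3). Among the phospholipases, PLCB4 held 53.9% in SW480-NC and 52.3% in SW480-45, PLCB3 42.4% and 44.3%, and PLCB1 3.74% and 3.32%. These receptor shares depend on which receptors are in the set. Of the summed level of all 16 Gq-coupled receptors tested in the table, F2RL1 held 32.4% in SW480-NC and 32.0% in SW480-45. HRH1 held 0.902% and 0.175% of that sum. Among these 16, HRH1 ranked 6 by level per kb in SW480-NC and 12 in SW480-45. F2RL1 ranked 1 in both lines and F2R ranked 5 in both, with the neurotensin receptor NTSR1 next to F2RL1 at 2049 and 1867 normalized counts per kb in SW480-NC and SW480-45.

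Over the 6 libraries and 9703 genes that have a symbol and average 50 normalized counts or more, those most like HRH1 by Pearson's r of log2(normalized count + 1) were PPL (0.995), B3GNT7 (0.993), TNS4 (0.992), CEMIP2 (0.990) and E2F7 (0.990). Those most like RGS2 were SRFBP1 (0.999), NLK (0.998), TGFBR2 (0.998), MMP7 (0.997) and REG4 (0.997). HRH1 and RGS2 had an r of 0.953 with each other. The 6 points of each correlation share the same libraries and fall into 2 separate lines. A gene that is also lower in SW480-45 can score high whatever the size of its difference. The genes like HRH1 had log2 fold changes from −0.58 (B3GNT7) to −0.40 (TNS4). Those like RGS2 had log2 fold changes from −2.15 (REG4) to −0.08 (NLK). The values are a description of likeness.

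The genes around HRH1 and RGS2 were looked at after the values of these 2 were seen. Within 1000 kb of the HRH1 start, 37 genes are annotated, 14 had a row and 8 were tested, and limma called 0 of them, with log2 fold changes from −0.87 to 1.18 and a lowest adjusted p of 0.318. At an unadjusted p under 0.05 from limma there were 0 as well, and edgeR and DESeq2 also called 0. The nearest tested gene was ATG7, an autophagy gene whose start is 135 kb away, at −0.08 (standard error 0.14). Within 1000 kb of the RGS2 start, 28 genes are annotated, 14 had a row and 7 were tested, and limma called 0, with log2 fold changes from −0.38 to 1.20 and a lowest adjusted p of 0.161. At an unadjusted p under 0.05 from limma there were 3 (beside 16.2% of all features), while edgeR and DESeq2 called 0. All 4 tested genes on the far side of RGS2, namely TROVE2 (−0.29), UCHL5 (−0.23), GLRX2 (−0.38) and B3GALT2 (−0.21), had lower means in SW480-45, each by less than RGS2. RGS1, a related regulator 233 kb before RGS2, had 13.6 ± 8.63 and 8.14 ± 7.22 normalized counts (SD, n = 3) and could not be told apart between the lines at this level.

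The rest of the Gq pathway was counted in 8 lists of 196 genes, of which 133 had a row and 95 were tested. Of the 95, 1 was called at an adjusted p under 0.05 from limma (1.05%, beside 0.802% of all features), and it was higher in SW480-45. At an unadjusted p under 0.05 there were 22, 15 higher and 7 lower, beside 3526 (16.2%) of all features. The median log2 fold change of the 95 was 0.01, with 50 higher and 45 lower in mean, and 28.4% did not overlap between the lines, beside 23.4% of all features.

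The called gene was HNMT (chr2:137964020-138016364), histamine N-methyltransferase, an enzyme that inactivates histamine inside cells. It had 451.3, 369.4 and 473.9 normalized counts in SW480-45 and 222.8, 219.2 and 239.6 in SW480-NC. All SW480-45 libraries were above all SW480-NC libraries, and HNMT rose from 227 ± 10.9 to 432 ± 55.0 (SD, n = 3; log2 fold change 0.92, standard error 0.13, adjusted p = 0.0353 from limma). When single libraries were dropped, the call was lost in 5 of 6 cases, and dropping SW480-45 replicate 1 gave an adjusted p of 0.135 from limma. AOC1, the secreted enzyme that also breaks down histamine, had 1655 ± 142 and 1451 ± 240 normalized counts in SW480-45 and SW480-NC (SD, n = 3; log2 fold change 0.20, adjusted p = 0.509 from limma). With these 2 tested, the median of the histamine list was 0.56. HDC, which makes histamine, had 6 to 10 reads in the SW480-45 libraries and 0 to 6 in the SW480-NC libraries. The receptors HRH2 and HRH4 had at most 5 reads in any library, and all 3 were too low to be tested, so no change could be seen at this depth.

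In the other 7 lists limma and edgeR called 0 genes and DESeq2 called 3, CCKAR, CALM3 (calmodulin) and GNAI1 (an inhibitory alpha subunit), of which the last 2 are named after their values were seen. With HNMT, DESeq2 called 4 of the 95 list genes, beside 756 of all 21703 features, and nothing is read from this count. Of 13 other Gq-coupled receptors tested, 2 had an unadjusted p under 0.05 (beside 16.2% of all features) and the median log2 fold change was −0.03. They ranged from −0.78 for TACR1, the substance P receptor (adjusted p = 0.481 from limma), to 0.88 for CCKAR, a cholecystokinin receptor, at 167 ± 17.6 and 91.2 ± 19.4 normalized counts in SW480-45 and SW480-NC (SD, n = 3; adjusted p = 0.103 from limma). Of 18 other G protein subunits, 7 had an unadjusted p under 0.05 (beside 16.2% of all features), 4 of them higher, and the median was −0.01. GNAZ was the highest at 0.54 (adjusted p = 0.149 from limma) and GNAL, the olfactory stimulatory subunit, the lowest at −2.19 (adjusted p = 0.219 from limma). GNAL had 107.6, 17.2 and 10.4 normalized counts in SW480-45 and 131.8, 130.4 and 119.8 in SW480-NC. The first SW480-45 library was near the control level and the other two were far below it, and leaving that library out gave a log2 difference of −3.16 (adjusted p = 0.0150 from limma). Without SW480-45 replicate 2 or 3 it was −1.87 or −1.53 (adjusted p = 0.446 and 0.337 from limma), and edgeR and DESeq2 gave −1.51 and −1.50. Genes on the opposite strand, AP005137.2 and MPPE1, share 28.1% of the exon bases of GNAL.

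The other regulators that end receptor signaling, RGS proteins, receptor kinases and arrestins, were counted beside RGS2. Of 18 tested, 13 were higher and 5 lower in mean, 2 had an unadjusted p under 0.05 (beside 16.2% of all features), and the median was 0.07. GRK5, a receptor kinase, was the lowest at −0.30 (adjusted p = 0.329 from limma) and RGS9 the highest at 1.65, from 8.69 ± 5.02 to 25.7 ± 1.51 normalized counts (SD, n = 3; adjusted p = 0.200 from limma). Of 5 other phospholipases C and related proteins, 1 had an unadjusted p under 0.05 (beside 16.2% of all features) and the median was 0.06, from −0.19 for PLCL2 (adjusted p = 0.709 from limma) to 0.51 for PLCB2 (adjusted p = 0.545 from limma). Without SW480-45 replicate 2 the sign of PLCL2 turned, to 0.09.

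Downstream, the calcium arm held 24 tested genes, 10 higher and 14 lower in mean, with a median of −0.06 and 7 at an unadjusted p under 0.05 (beside 16.2% of all features). The lowest log2 fold change was that of NFATC1, a calcium-responsive transcription factor, at 9.53 ± 3.60 and 19.9 ± 6.20 normalized counts in SW480-45 and SW480-NC (SD, n = 3; adjusted p = 0.306 from limma), and the highest was 0.80 for CAMK2B, a calmodulin-dependent kinase subunit (adjusted p = 0.270 from limma). The diacylglycerol arm held 14 tested genes, 8 higher and 6 lower, with a median of 0.03 and 2 at an unadjusted p under 0.05 (beside 16.2% of all features). The lowest log2 fold change was −0.40 for RASGRP3, a diacylglycerol-binding activator of Ras (adjusted p = 0.694 from limma).

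**Figure D4:**
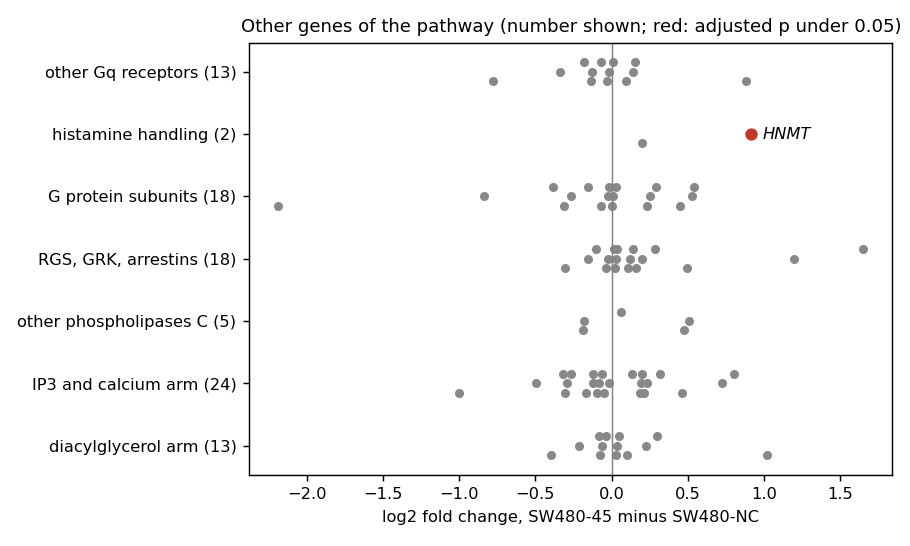
Log2 fold change (SW480-45 minus SW480-NC) of other pathway genes tested, by list, each point a gene and the number shown in brackets. HNMT at 0.92, in red, is the gene called at an adjusted p under 0.05, and the list medians lie between −0.06 and 0.07 except for the 2 histamine genes.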

How the data were processed

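RNA of 3 SW480-45 and 3 SW480-NC libraries was made with a NEBNext Ultra RNA kit, which does not mark strand. The submitters' processing notes name bcl2fastq, HISAT2, DESeq2 and GRCh38, and the study's text names Cuffdiff. The counting tool and annotation are not given in the sources used here. The authors deposited normalized counts, a signal for each feature obtained by dividing its count by the size factor of the library. Whole reads, within 0.01 reads, were recovered for 100% of the values. A count of 0 allows up to 3 reads, and this limit covers counting error only.

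Log2(normalized count + 1) was tested with limma 3.58.1 in R 4.3.3, with an intensity trend, over features averaging 10 normalized counts or more, with Benjamini-Hochberg adjustment over all of them. Fold changes are on this scale and can differ from the ratio of the means for genes with low or uneven counts. The test was kept after whole reads were recovered. On those reads edgeR 4.0.16 (quasi-likelihood test) called 136 features and DESeq2 1.42.0 called 756, against 174 with limma. Steps were tested on simulated data. Symbols and coordinates are from GENCODE 29 on GRCh38, by Ensembl identifier, and loci without one were not named.

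The Gq genes and the lists (receptors, histamine handling, G protein subunits, RGS and receptor kinases with arrestins, phospholipases C, calcium arm, diacylglycerol arm, cell type markers) were chosen with earlier results of these data known. Beyond the Gq genes, HPSE and the markers, genes were named by rule: list genes with an adjusted p under 0.05, the highest and lowest of each list with at least 2 tested, and the 5 genes most like HRH1 and RGS2. Same-numbered replicates did not deviate together, so no pairing was used. A further small list and a gene of the diacylglycerol arm enter the counts and are not reported here by name or in the plot. The alternatives are given in the closing section.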

Additional observations from a re-analysis of the deposited data

How the results depend on the processing

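The count of features called was 174 with limma, and it was 11 without the intensity trend, 12 with the replicate block, 756 with DESeq2 (398 higher, 358 lower) and 36 to 104 when a single library was left out. No pairing by replicate number was seen, as the deviations of same-numbered libraries correlated at −0.020 to 0.007. Whether the 2 lines were run together in each experiment is not given in the sources used here. The count over the pathway lists, 1 with limma (HNMT), was 0 without the trend, 0 with the replicate block, 2 with all features tested (HNMT and CALM3), 4 with DESeq2 (HNMT, CALM3, CCKAR and GNAI1) and 0 to 1 with a library left out (GNAL without SW480-45 replicate 1, HNMT without replicate 2, CALM3 without replicate 3). CALM3 and GNAI1 are named here after their values were seen. HNMT passed in 8 of 15 alternatives, with an adjusted p from 8.76e-06 in DESeq2 to 0.135 in limma without SW480-45 replicate 1. The log2 fold change of HPSE, −0.83, passed the threshold with all features tested (adjusted p = 0.0451 from limma), with features averaging 50 normalized counts or more (adjusted p = 0.0460 from limma) and in DESeq2 (adjusted p = 0.000948). HPSE did not pass in the other alternatives. The adjusted p was 0.0664 from edgeR, 0.126 from limma without the trend and 0.169 from limma with the replicate block. With a single library left out it was 0.0734 to 0.188 from limma. Of the Gq genes, 7 of 9 kept their sign in all 15 alternatives, and PLCB1 and PLCB4 changed it in 1 each. Leaving out the trend, adding the replicate block or changing the required average count cannot change a fold change. Rescaling by size factors recomputed as medians of ratios could hardly change one either, as they equalled the deposited factors. The genes were also chosen on this comparison, so a kept sign is a description. Quantile normalization left the median of all features at −0.01. Depth limits HRH1 in SW480-45, at 40 to 104 reads, and the list genes under 30 reads.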
